A study of Mus musculus with 4 samples.

Results

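The cornified envelope and epidermal barrier genes are 44 non-keratin genes of late epidermal differentiation: envelope proteins, proteases, transglutaminases, enzymes of barrier lipids and regulators. They were followed in hair follicle stem cells, which rebuild the follicle in each cycle of hair growth. The cells came from the skin of mice at postnatal day 4 and were isolated by FACS. Members were the genes named by exactly 1 of these symbols in the platform annotation, each represented by its probe set of highest mean over the 4 arrays. Of the 44, 42 were measured, among 18193 genes in the table, and Flg2 and Sprr4 had no probe set. Messenger RNA was read on 4 one-colour Affymetrix arrays, 2 of the genotype miR-205 KO (knockout) and 2 of the genotype WT (wild type), all with the strain background C57BL/6. Each group holds arrays numbered 1 and 2, called biological replicates, with no statement of separate animals or pools, so the spread behind a p-value may be technical. The labels give neither the allele deleted, nor a Cre driver, nor the sort markers. A protocol text shared by all 4 samples instead describes doxycycline-induced miR-203 in K14-rtTA/TRE-miR-203/K14-H2BGFP mice and was not used to assign groups.

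As keratinocytes leave the basal layer they make filament-binding and envelope proteins, which transglutaminases crosslink beneath the plasma membrane into the cornified envelope. Lipids extruded between the cells, ceramides above all, are bound to this shell, and kallikrein proteases later cut the desmosomes that hold the dead cells together. Stem cells of the follicle lie in a basal-like layer and do not cornify, while the upper follicle and the inner root sheath use several of the same genes. The microRNA miR-205 is abundant in basal epidermal and follicle cells and represses messenger RNAs that match its seed.

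The microRNA missing from the KO cells, mmu-miR-205-5p, is shown because its loss defines the comparison, with the seed (bases 2 to 8) in capitals, from RefSeq on GRCm38.p6 (chr1:193507503-193507524, minus strand). No transcript sequence was searched for matches to it.
mmu-miR-205-5p: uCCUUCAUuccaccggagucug

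Promoter sequence shows what some of the members share beyond function. RefSeq's promoter table (GRCm38.p6) held 34 of the 44 members, with 36 start sites. The AP-1 motif TGANTCA, which reads the same on both strands and is bound by FOS and JUN proteins, lay within 250 bases before 10 of the 36 start sites (27.8%), against 6.7% of all 32851 start sites in the table. The TATA motif TATAAA, searched on both strands and counted separately, lay in 12 of the 36 (33.3%), against 12.4% of all. Both motifs were present for 8 members, and 7 of those 8, all but Krtdap, are envelope precursors of chromosome 3. Apart from Krtdap and Sbsn on chromosome 7, all members with the AP-1 motif are envelope precursors of chromosome 3, among them the unmeasured Flg2. The bases around the match are nearly the same for Flg2 and Flg, so the start sites are not independent. A match describes the letters and does not show a bound site. Krtdap is 1 of the 2 members with an unadjusted p under 0.05 (limma). The other, Calml3, is 1 of 10 members without an entry in the promoter table. Calm4, S100a8 and S100a9 had entries but no match to TGANTCA. The windows below are 30 bases long, with TGANTCA in capitals. They are given for Krtdap, its chromosome 7 neighbour Sbsn, and the envelope precursors Lor, Ivl, Sprr1a and Flg described next.
Krtdap, chr7:30787813-30787842, plus strand: tgatccggggaTGAGTCActagggtgggaa
Sbsn, chr7:30751341-30751370, plus strand: gatcttgtccaTGAATCAtcctgtcttcct
Lor, chr3:92083172-92083201, minus strand: tgatcaatagaTGAGTCAgagcaggacaag
Ivl, chr3:92573833-92573862, minus strand: aagttatcagaTGACTCAgaaaggaaggaa
Sprr1a, distal match, chr3:92486009-92486038, minus strand: ataactaaagcTGAGTCAgagggtgaacta
Sprr1a, proximal match, chr3:92485979-92486008, minus strand: ggggaggagggTGAGTCAtaggtgactggt
Flg, chr3:93273432-93273461, plus strand: ttggttaagaaTGAATCAgaccatcccaca

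The deposited values are log2 expression values and the number of arrays limits their precision. Follicle stem cell markers were present: 11 of 12 measured ones lay above the level of the median gene (6.88), among them Krt15 at 13.62 to 14.05 and Lhx2 at 11.66 to 11.76. KO and WT arrays also differed in RNA of the sex chromosomes, with Xist at 5.26 and 5.45 on the KO arrays and 13.28 and 13.19 on the WT arrays, so genotype and the sex of the mice cannot be told apart in any comparison here. The 15 dermal fibroblast markers separated single arrays, with a mean of 10.85 for WT 1, 9.80 for KO 1, 9.0 for KO 2 and 8.74 for WT 2. In bulk RNA, fewer cells of a type and less RNA per cell cannot be told apart.

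No barrier gene passed the threshold between KO and WT (limma, adjusted p under 0.05 over all genes, 0 of 42 members), while 0.011% of all genes did. Those genes were the sex-linked Xist, lower in KO cells, and Eif2s3y, higher in KO cells. At an unadjusted p under 0.05, 2 members, Calml3 and Krtdap, were higher in KO cells and 0 lower. Over all genes the share was 1.88%, of which 1.15% were higher and 0.726% lower. With 1 array left out, KO minus WT (log2) ran from 0.51 to 0.87 for Calml3 and from 0.23 to 0.51 for Krtdap. The median difference (KO minus WT, log2) over the members was 0.03, against 0.01 over all genes. Of the members 24 were higher and 18 lower in KO cells, where 9631 of all genes were higher and 8195 lower. Both KO arrays lay above both WT arrays for 9 members, where 8.2% of all genes did so, and below for 0 members, where 5.7% did so. The 9 were Krtdap, Calm4, Calml3, Tgm5, Evpl, Klk8, S100a9, Cnfn and Alox12b, and for Cnfn the gap between the nearest KO and WT arrays vanished at 2 decimals.

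Within the replicate numbers, 16 members were higher in KO cells in both, 3 were lower in both, and 23 changed sign or had no difference in 1 number. The members' shares were thus 38.1% higher and 7.14% lower in both, where over all genes 24% were higher and 16.8% lower. A higher share was not particular to the members. Further barrier genes that are no members had 41.4% higher and 22.9% lower in both, and other regulators of late differentiation 38.7% and 9.68%. The members' median difference was 0.00 in number 1 and 0.08 in number 2. Only 19 of the 42 probe sets lay above the level of the median gene, and 9 of these 19 were higher in KO cells in both numbers, where 30.4% of all genes above that level were. The other 23 lay at or below it, where a real signal and background look alike, because the table has no detection calls.

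**Figure D1:**
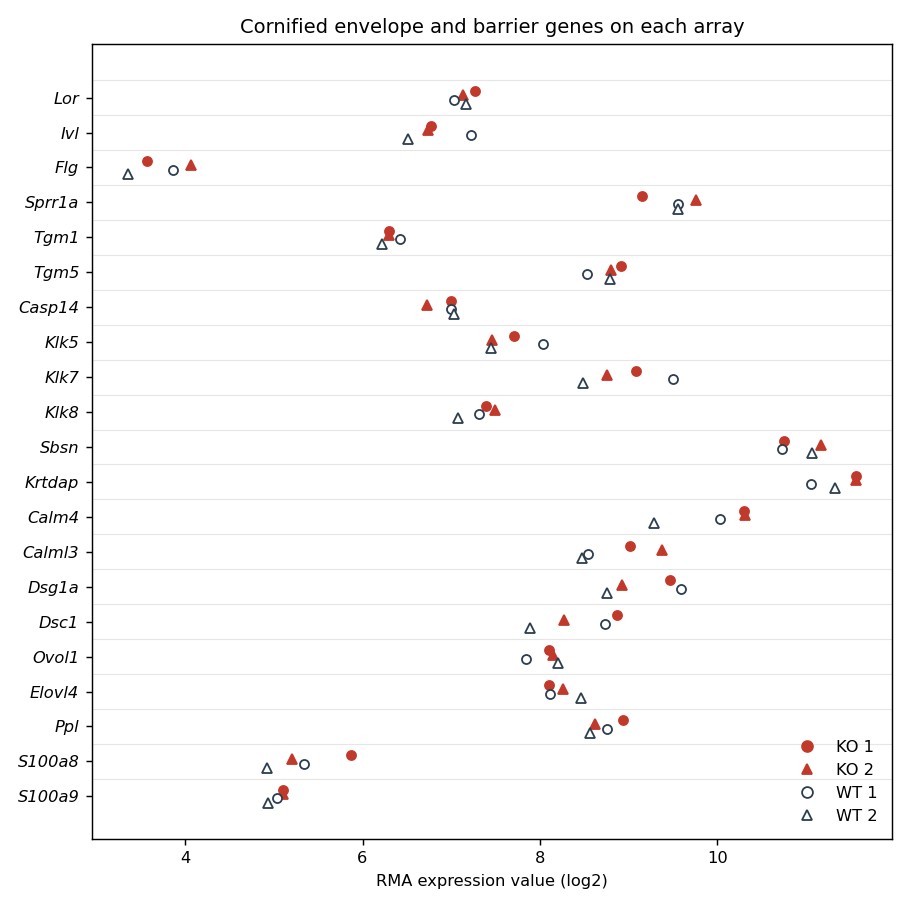
RMA expression values (log2, horizontal axis) of 21 members on each of the 4 arrays; red filled symbols are KO, open dark symbols WT, circles number 1 and triangles number 2. Both KO arrays lie right of both WT arrays for Calml3, Calm4 and Krtdap, while Klk7 and Dsg1a spread by number; positions of different genes are not comparable.

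**Figure D2:**
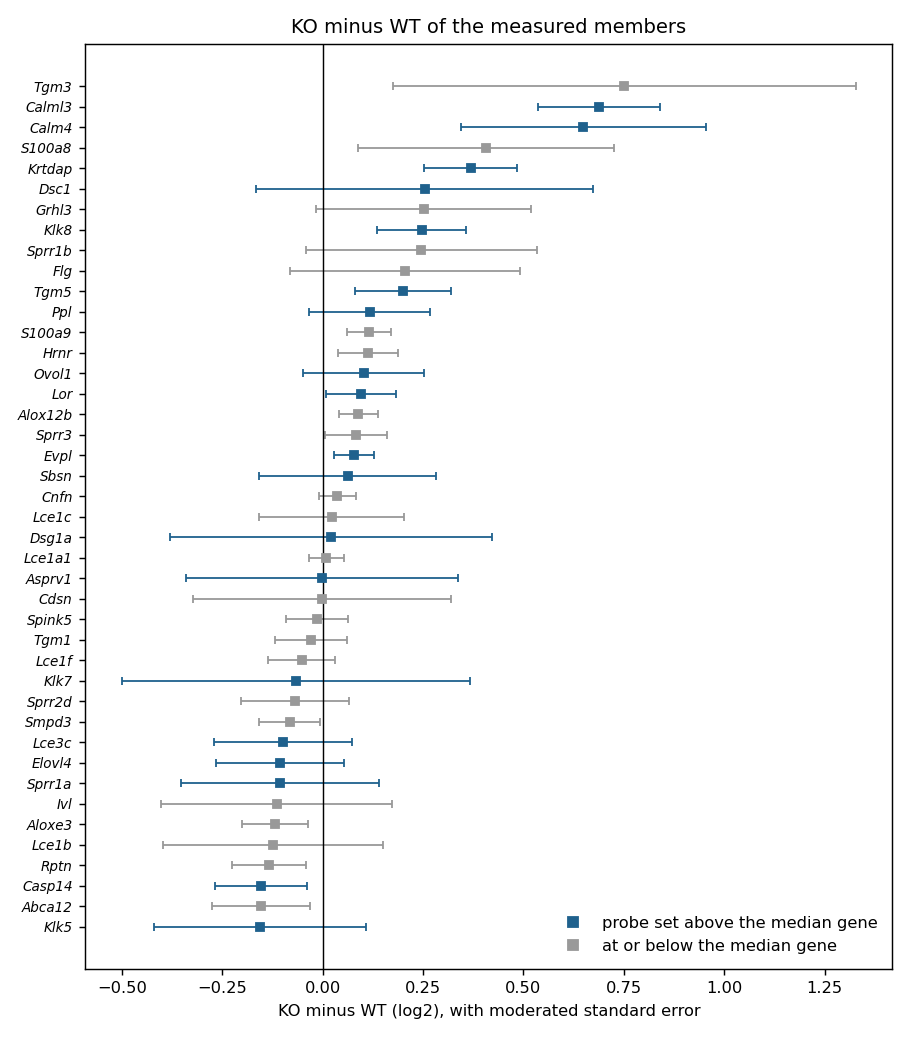
KO minus WT (log2) of all 42 measured members with the moderated standard error from limma (2 arrays per group); blue marks probe sets above the level of the median gene and grey those at or below it. The differences run from -0.16 for Klk5 to 0.75 for Tgm3, and the error bars of 24 members reach 0.

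The secreted and calcium-binding products of differentiating keratinocytes held both members with an unadjusted p under 0.05. In each number KO exceeded WT for all 6 members of this group, where 24% of all genes were higher in both. Their median difference was 0.39. For 4 of the 6 both KO arrays lay above both WT arrays, where 8.2% of all genes did so. The members were chosen with earlier results known, and 0 of the 6 passed the adjusted threshold. Calml3, a calmodulin-like protein of epithelia, read 9.02 on KO 1, 9.38 on KO 2, 8.55 on WT 1 and 8.47 on WT 2. The groups did not overlap, and the WT arrays were close together. KO cells averaged 9.20 ± 0.25 and WT cells 8.51 ± 0.05 (mean ± SD over 2 arrays). That is 1.61-fold, a difference of 0.69 with an SE of 0.15 (limma adjusted p = 1, unadjusted p = 0.019). Without single arrays it ran from 0.51 to 0.87.

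Calm4, a calmodulin-like protein of the upper epidermis whose gene neighbours Calml3 on chromosome 13, read 10.30 on KO 1, 10.31 on KO 2, 10.03 on WT 1 and 9.28 on WT 2. The KO arrays were nearly equal and WT 2 was lowest by a wide margin. Its difference was 0.65 (SE 0.31, limma adjusted p = 1), made of 0.27 in number 1 and 1.03 in number 2. Leaving out WT 2 gave 0.27, and leaving out WT 1 gave 1.02.

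Krtdap, a small secreted peptide of differentiating keratinocytes, read 11.56 on both KO arrays, 11.05 on WT 1 and 11.33 on WT 2. Here WT 1, not WT 2, was lowest. The difference was 0.37 (SE 0.12, limma adjusted p = 1, unadjusted p = 0.049), and ran from 0.23 without WT 1 to 0.51 without WT 2. Sbsn, the secreted protein suprabasin, lies close to Krtdap on chromosome 7 and read 10.75 on KO 1, 11.17 on KO 2, 10.73 on WT 1 and 11.07 on WT 2. Both number 2 arrays were above both number 1 arrays, and the genotype groups overlapped. KO exceeded WT by 0.03 in number 1 and 0.10 in number 2, a difference of 0.06 (SE 0.22). The other probe sets of Sbsn differed by 0.10 and 0.24.

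S100a8 and S100a9, the subunits of calprotectin, are made by neutrophils and by stressed keratinocytes. S100a8 read 5.87 on KO 1, 5.20 on KO 2, 5.34 on WT 1 and 4.92 on WT 2, and the groups overlapped. Its difference was 0.41 (SE 0.32). S100a9 read 5.10 on both KO arrays, 5.04 on WT 1 and 4.94 on WT 2, a difference of 0.12 (SE 0.05). Both probe sets were dim. All 15 measured neutrophil and myeloid markers were dim as well, with means over the markers of 4.69 and 4.81 on the KO arrays and 4.72 and 4.76 on the WT arrays; the lineage genes Elane (5.08 to 5.14) and Mpo (4.84 to 5.20) lay within this range of dim values.

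Envelope precursors, the bulk material that transglutaminases crosslink, showed no shared direction. Of 14 measured precursors, 7 were higher and 7 lower in KO cells. For 0 of the 14 were the groups apart, where 8.2% of all genes had KO above and 5.7% KO below. Lor, loricrin, the main protein of the mature envelope, read 7.26 on KO 1, 7.13 on KO 2, 7.03 on WT 1 and 7.17 on WT 2, a difference of 0.09 (SE 0.09). Its other probe sets differed by -0.14 and -0.09, so its direction depended on the probe set. Ivl, involucrin, an early scaffold of the envelope, read 6.78, 6.73, 7.22 and 6.52 on the same arrays. WT 1 was highest and WT 2 lowest, the KO arrays lay between them, and the difference was -0.11 (SE 0.29).

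Filaggrin bundles keratin filaments, and its relatives Hrnr and Rptn are counted with it among the envelope precursors. Flg read 3.57 on KO 1, 4.06 on KO 2, 3.86 on WT 1 and 3.36 on WT 2, near the floor of the table at 2.51. Hrnr (3.02 to 3.24) was dim too, and Rptn, the envelope protein repetin, ran from 5.48 to 5.75. Their differences were 0.20 for Flg, 0.11 for Hrnr and -0.13 for Rptn.

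Small proline-rich proteins bridge the other envelope proteins. Sprr1a, the one of these above the median gene, read 9.15 on KO 1, 9.75 on KO 2 and 9.56 on both WT arrays. The KO arrays stood on either side of WT, with a difference of -0.11 (SE 0.25). Sprr1b ran from 3.65 to 4.33, Sprr2d from 5.34 to 5.63 and Sprr3 from 5.21 to 5.38, with differences of 0.25, -0.07 and 0.08. Of the late cornified envelope genes, Lce3c read 7.66 on KO 1, 7.86 on WT 1 and 8.04 on both number 2 arrays. The remaining members of that family, Lce1a1, Lce1b, Lce1c and Lce1f, were dim, and the family's differences ran from -0.12 to 0.02. The families Sprr and Lce hold near-identical copies, and the probe sets of Lce3c and Lce1a1 carry the suffix _x_at, which marks possible cross-hybridisation, so their values are uncertain; those used for Casp14 and Sbsn carry it as well.

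Scaffold proteins had small differences of the same sign. Ppl and Evpl, periplakin and envoplakin, link keratin filaments and desmosomes to the forming envelope. Ppl read 8.93 on KO 1, 8.62 on KO 2, 8.75 on WT 1 and 8.57 on WT 2, a difference of 0.12 (SE 0.15) with overlapping groups. Evpl read 8.23 and 8.26 on the KO arrays and 8.13 and 8.20 on the WT arrays, a difference of 0.08 (SE 0.05) with the groups apart. Cnfn, cornifelin, was dim at 4.52 to 4.59.

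The transglutaminases differed among themselves. Tgm5 read 8.92 on KO 1, 8.80 on KO 2, 8.53 on WT 1 and 8.79 on WT 2. The groups did not overlap, but KO 2 and WT 2 were nearly equal, and the difference of 0.20 (SE 0.12) rested on WT 1: it was 0.07 without that array. Tgm3, which also acts in the hair follicle, read 7.77 on KO 1, 6.54 on KO 2, 6.77 on WT 1 and 6.04 on WT 2. Its difference of 0.75 was the largest in size among the members, with an SE of 0.58 and overlapping groups. It was 0.14 without KO 1, and the other probe set of Tgm3 differed by 0.04. Tgm1, the membrane-anchored enzyme of the epidermis, read 6.29 on both KO arrays, 6.42 on WT 1 and 6.22 on WT 2, a difference of -0.03 (SE 0.09).

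Of the proteases and the inhibitor Spink5, 1 was higher and 5 were lower in KO cells, and 0 of the 6 passed the threshold. Of all genes 9631 were higher and 8195 lower. Within both numbers, however, 1 of the 6 was higher and 0 were lower. The kallikreins Klk5 and Klk7 cut desmosomes at the surface of the skin. Klk7 read 9.09 on KO 1, 8.76 on KO 2, 9.50 on WT 1 and 8.48 on WT 2, with both KO arrays between the WT arrays. Klk5, its activator, read 7.71, 7.46, 8.04 and 7.44 on the same arrays. Their differences were -0.07 (SE 0.43) and -0.16 (SE 0.26). Klk8, another kallikrein of the same cluster on chromosome 7, behaved otherwise, at 7.39 on KO 1, 7.49 on KO 2, 7.31 on WT 1 and 7.08 on WT 2. Its groups did not overlap, with a difference of 0.25 (SE 0.11, limma adjusted p = 1), which was 0.13 without WT 2.

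Casp14, the caspase of cornification that takes part in filaggrin breakdown, read 6.99 on KO 1, 6.73 on KO 2, 6.99 on WT 1 and 7.03 on WT 2. KO 2 was the low array, the difference was -0.15 (SE 0.11), and the other probe set of Casp14, without the suffix _x_at, differed by 0.13. Asprv1, a retroviral-like protease that processes profilaggrin, read 7.71 and 8.33 on the KO arrays and 7.74 and 8.30 on the WT arrays. It followed the number, with a difference of 0.00 (SE 0.34). Spink5, the inhibitor of the kallikreins, was dim at 4.41 to 4.57.

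Desmosomal cadherins of the upper epidermis showed wide gaps between numbers. Dsg1a, a desmoglein, read 9.46 on KO 1, 8.93 on KO 2, 9.59 on WT 1 and 8.76 on WT 2. Dsc1, its desmocollin partner, read 8.87, 8.27, 8.74 and 7.89. Number 1 was higher than number 2 in both groups for both genes. KO minus WT was 0.02 (SE 0.40) for Dsg1a and 0.25 (SE 0.42) for Dsc1. Cdsn, corneodesmosin, the glycoprotein of the desmosomes between cornified cells, went the other way between the numbers, at 5.28 and 6.00 on the KO arrays and 5.48 and 5.80 on the WT arrays.

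Enzymes and carriers of barrier lipids were lower in KO cells for 4 of 5 members, by small amounts, and 0 passed the threshold. Of all 18193 genes 8195 were lower. Within both numbers only 2 of the 5 were lower and 1 was higher, where 16.8% and 24% of all genes were. Elovl4, which elongates the very long fatty acids of ceramides, read 8.10 on KO 1, 8.27 on KO 2, 8.11 on WT 1 and 8.46 on WT 2, a difference of -0.11 (SE 0.16). Its other probe set differed by -0.39, with overlapping groups. Abca12, the lipid transporter of lamellar granules, differed by -0.15 (SE 0.12), a value that shrank to -0.01 without WT 1. Aloxe3 and Alox12b, lipoxygenases acting in sequence on ceramide-bound linoleate, differed by -0.12 and 0.09, and Smpd3, a sphingomyelinase, by -0.08. Of these 5, Elovl4 alone lay above the median gene.

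Both transcription factors of the group had slightly higher values in KO cells. Grhl3, a driver of terminal differentiation and barrier formation, read 6.40 on KO 1, 6.17 on KO 2, 6.34 on WT 1 and 5.73 on WT 2, and its difference of 0.25 (SE 0.27) came largely from WT 2: it was -0.06 without that array. Ovol1, a zinc finger repressor that promotes exit from the cell cycle in differentiating cells, read 8.10 on KO 1, 8.14 on KO 2, 7.84 on WT 1 and 8.20 on WT 2, with WT 1 alone set apart. Its difference was 0.10 (SE 0.15).

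**Figure D3:**
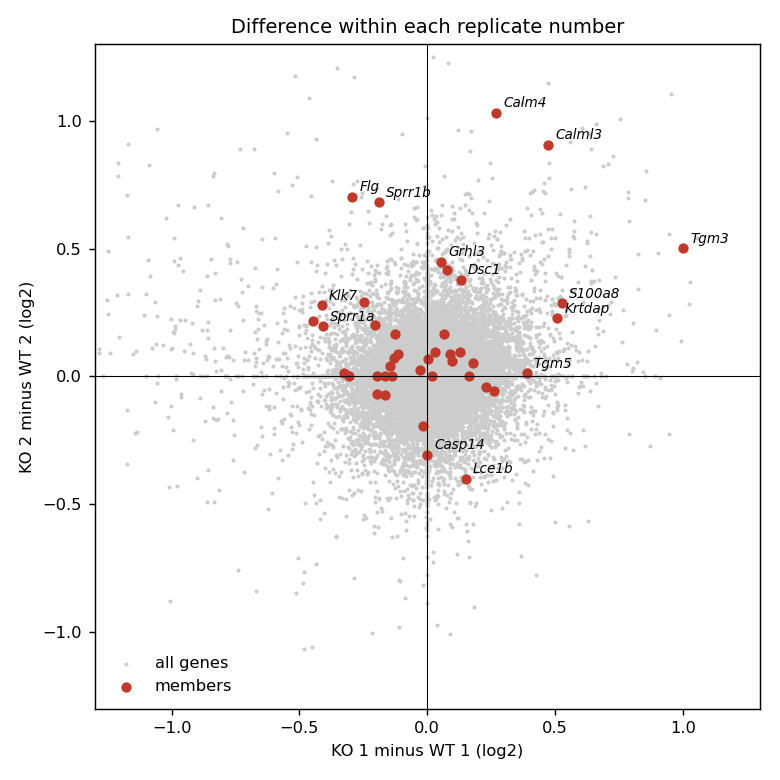
KO minus WT (log2) in number 1 (horizontal axis) and in number 2 (vertical axis); red points are the 42 members and grey points all genes, with 65 genes outside the axis limits. Calm4, Calml3, Krtdap, S100a8 and Tgm3 lie where both differences are above 0.

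Between the replicate numbers the members separated about as often as genes in general. Both number 2 arrays lay above both number 1 arrays for 9 members (21.4%), where 21.7% of all genes did, and below for 9 others (21.4%), where 22% did. Higher in number 1 were the cadherins Dsg1a and Dsc1, the kallikreins Klk5 and Klk7, Ivl, Ppl, Tgm3, Grhl3 and S100a8. Higher in number 2 were Sbsn, Asprv1, Cdsn, Ovol1, Elovl4, Lce3c, Lce1a1, Lce1b and Sprr2d. The mean of number 2 minus that of number 1 ran from -0.98 for Tgm3 to 0.59 for Asprv1. These gaps were larger than the KO minus WT difference in size for Dsg1a (-0.68 against 0.02), Klk7 (-0.67 against -0.07) and Asprv1 (0.59 against 0.00).

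**Figure D4:**
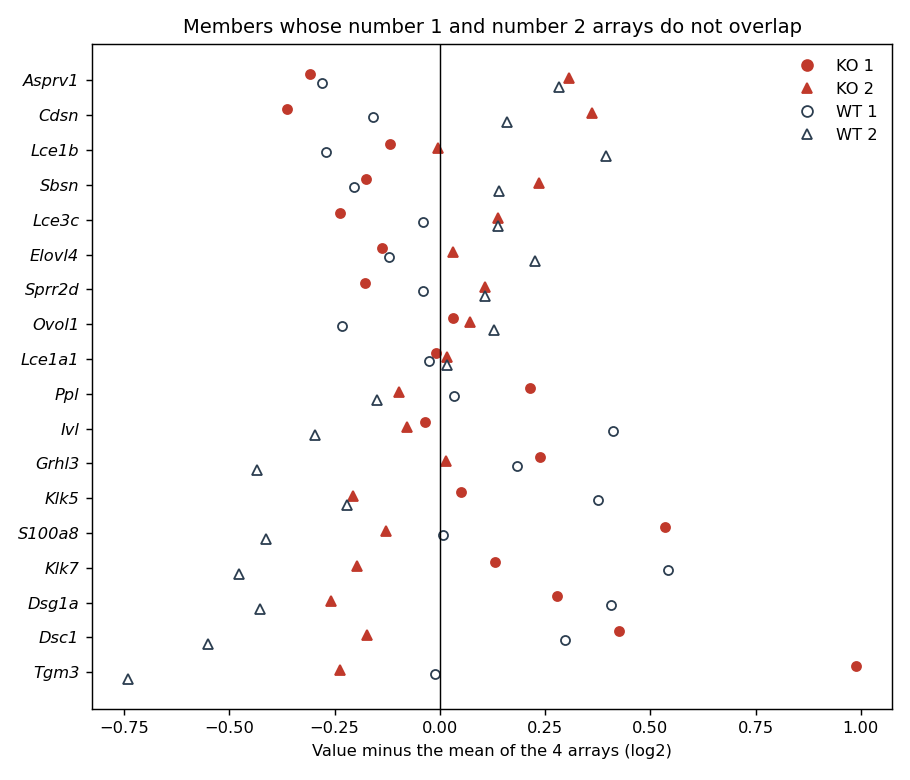
Values of the 18 members whose number 1 (circles) and number 2 (triangles) arrays do not overlap, each minus its mean over the 4 arrays (log2, horizontal axis); red filled symbols are KO and open dark symbols WT. Asprv1 and Cdsn are higher in number 2, Dsc1, Dsg1a, Klk7 and Tgm3 in number 1.

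Of the members, 4, namely Dsg1a, Klk7, Klk5 and Ivl, had the array order WT 1, KO 1, KO 2, WT 2 from high to low (9.52%), an order chosen after their values were seen and found in 4.33% of all genes. The mean of the fibroblast markers had that order too. Upper follicle and companion layer markers had means of 9.23 on KO 1, 9.20 on WT 1, 8.97 on KO 2 and 8.81 on WT 2, with Cst6, a protease inhibitor of the upper follicle, at 10.02, 10.40, 9.21 and 9.27 in that order. Of the 10 markers of this list, 5 were higher on both number 1 arrays and 2, Krt79 and Krt17, on both number 2 arrays. The 18S ribosomal RNA control at the 5′ end also separated the numbers, at 11.51 and 11.59 for number 1 and 9.46 and 9.40 for number 2. The 5′ controls of actin and Gapdh separated them in the opposite direction. Actin read 13.62 and 13.60 for number 1 and 14.03 and 13.87 for number 2, and Gapdh 12.54 and 12.72 against 13.10 and 13.02. The part of these markers and of the controls in the members' values was not tested.

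Krt1 and Krt10, the keratins of the layers above the basal layer, are no members and serve as the check on differentiated cells. Krt1 read 11.37 on KO 1, 11.31 on KO 2, 10.32 on WT 1 and 9.86 on WT 2. Its difference was 1.25 (SE 0.19, limma adjusted p = 1, unadjusted p = 0.0065). Krt10 read 12.22, 12.21, 11.75 and 11.06, a difference of 0.81 (SE 0.28). Both differences were larger than that of any member, of which the largest was 0.75 for Tgm3. For both, the KO arrays were nearly equal and above both WT arrays, and WT 2 was lowest, as for Calm4. The other 3 measured keratins of these layers did not follow that pattern. Krt77 differed by 0.36 (SE 0.40) and Krt80 by -0.01, both with overlapping groups, and Krt2 was dim at 3.34 to 3.47. Basal keratinocyte markers had means of 11.45 and 11.32 on the KO arrays and 11.31 and 11.20 on the WT arrays, and inner root sheath and hair markers 7.82 and 7.87 on the KO arrays against 8.04 and 7.40 on the WT arrays. Sebaceous markers had means of 9.17 and 9.18 against 8.90 and 9.31. The part of any of these cell types in the members' differences was not tested.

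**Figure D5:**
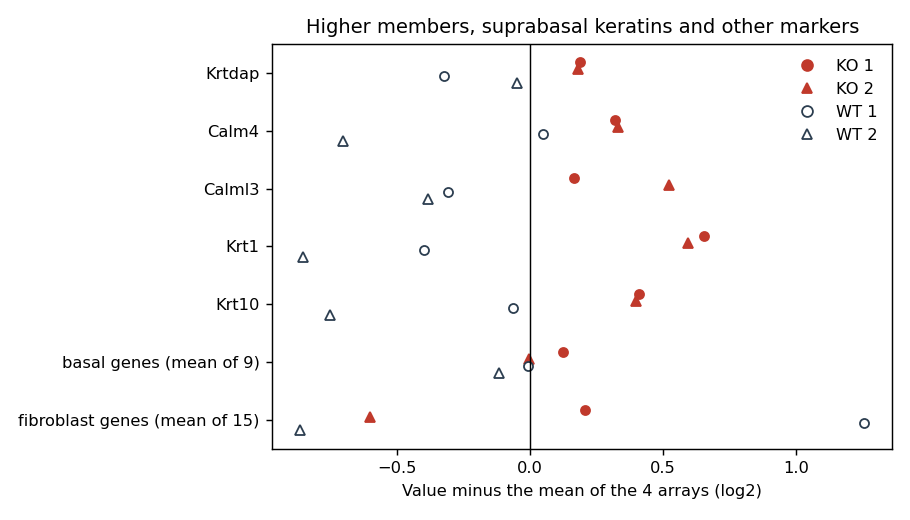
Values minus the mean of the 4 arrays (log2, horizontal axis) for Krtdap, Calm4, Calml3, Krt1 and Krt10 and for the means of 9 basal and 15 fibroblast markers; symbols as KO (red filled) and WT (open), circles number 1 and triangles number 2. Both KO arrays lie above both WT arrays for the 5 genes, while the fibroblast mean is highest on WT 1 and lowest on WT 2.

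Other genes of the pathway, listed apart from the members, were read in the same fit. Of 90 listed symbols of further barrier genes, some of them older and newer names of 1 gene, 70 genes were measured; 0 passed the adjusted threshold with limma and 1 had an unadjusted p under 0.05. Their median difference was 0.05, with 41 higher and 28 lower in KO cells, where 9631 of all genes were higher and 8195 lower. The gene at the unadjusted level was Pnpla1, which makes the linoleate esters of barrier ceramides, at 0.19 (SE 0.06). Among those above the median gene with the smallest p, Csta1, a cystatin A of the envelope, differed by 0.46 (SE 0.17), the inner root sheath and granular protein gene Tchh by 0.23 (SE 0.10), the epithelial surface protein gene Ly6d by 0.23 (SE 0.11), S100a6 by 0.23 (SE 0.11) and Il1f5, an antagonist of the interleukin 36 receptor, by 0.12 (SE 0.06). Lce1i differed by -0.21 (SE 0.10).

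Of 33 other regulators of late differentiation 31 were measured; 0 passed the adjusted threshold with limma, and 0 had an unadjusted p under 0.05. Their median difference was 0.04, with 22 higher and 8 lower, where 9631 of all genes were higher and 8195 lower. For 0 of the 31 were the groups apart, where 8.2% of all genes had KO above and 5.7% KO below. Both number 2 arrays lay below both number 1 arrays for 19 of the 31 and above for 3. Over all genes these shares were 22% and 21.7%. The homeodomain gene Hopx differed by 0.25 (SE 0.15), the vitamin D receptor gene Vdr by 0.25 (SE 0.16), and the AP-1 gene Fosl2 by -0.17 (SE 0.12). The AP-2 genes Tfap2c and Tfap2a differed by -0.19 (SE 0.13) and 0.17 (SE 0.13), and Ovol2, the relative of Ovol1, by 0.10 (SE 0.09).

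The members' mean pattern over the arrays, each gene centred on its own mean, was 0.03 on KO 1, 0.05 on KO 2, 0.02 on WT 1 and -0.10 on WT 2. WT 2 was thus the low array on average. It was also lowest over all genes, whose means were 6.96 on KO 1, 6.95 on KO 2, 6.96 on WT 1 and 6.94 on WT 2. Among 2322 genes above the median level and at least as variable, those nearest to that pattern were Apoc1, Med12l, Hook3, Alad and Zbtb14. With 4 arrays this likeness is a description only.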

How the data were processed

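The deposited table holds log2 expression values per probe set, which the authors computed with RMA (version not stated), per the submitters' processing notes. Other steps were not given in the sources used here. RMA in general corrects background, gives all arrays the same distribution and summarises probes by median polish, which can understate folds of dim genes. Of 45101 probe sets, 34945 had 1 gene symbol in GEO's platform annotation (dated before current symbols), 932 had several, 9160 none here and 64 were controls. In 47.1% of probe sets some arrays shared exactly the same value. This held for 16 of the 42 measured members, S100a9, Cnfn, Sprr1a and Tgm1 among them, so equal values there need not mean close replicates.

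KO was compared with WT by a two-sided test without covariates in limma 3.58.1 (lmFit, then eBayes; R 4.3.3), fitted on all 18193 genes with Benjamini-Hochberg adjustment and a threshold of 0.05. SE is the moderated standard error. No filter on dim genes was applied. The fit was tested on simulated data. Members and lists were chosen with earlier results of these data known. Values on every array are given for members with an unadjusted p under 0.05, the 12 of largest difference above the median gene, the 8 brightest, and Lor, Ivl, Flg, Tgm1, Casp14, S100a8 and S100a9; other members' array values were added after they were seen. Of the other lists, up to 6 genes of smallest p above the median gene were named, with Krt1 and Krt10; Pnpla1 and markers named singly fall outside that rule. Alternatives were other normalizations, removal of dim genes, probe sets averaged per gene, a replicate block, other eBayes settings, another threshold and leaving out each array. Promoter windows end at the start site, and GRCm38.p6 coordinates apply to RefSeq sequences only.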

Additional observations from a re-analysis of the deposited data

How the results depend on the processing

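The count of members past the adjusted threshold was 0 under all alternatives run, and the members' median difference stayed between 0.01 and 0.08. Of all genes, 2 passed in the main fit, the sex-linked Xist and Eif2s3y. The count was 3 with quantile normalization again, 3 with arrays centred on their medians and 1 without dim genes. With probe sets averaged per gene it was 0, as it was with the replicate block. With the replicate block 3 of 42 members had an unadjusted p under 0.05 (limma), namely Calml3, S100a8 and Tgm3. In that fit 879 of all 18193 genes did so, against 342 in the main fit. Same-numbered arrays deviated together (r = 0.56 across genes), and the 18S ribosomal RNA control at the 5′ end separated the numbers as well. The 5′ controls of actin and Gapdh separated them too, in the opposite direction. There are 2 numbers and no label names a shared litter or batch. What same-numbered arrays have in common is thus not stated, and it was not tested. Members higher in KO cells within both numbers were 16, and 9 without dim genes, a filter that leaves 19 members to count. Lor differed by -0.046 with its probe sets averaged, where 2 dimmer ones have the opposite sign.

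Leaving out 1 array at a time kept the sign of 17 of the 42 members, 13 of them higher and 4 lower in KO cells. Among the members with values on every array the range was -0.17 to 0.68 for Dsc1, -0.40 to 0.44 for Dsg1a, -0.28 to 0.067 for Elovl4, -0.047 to 0.46 for Flg, -0.47 to 0.24 for Ivl, -0.46 to 0.14 for Klk5, -0.58 to 0.44 for Klk7, -0.078 to 0.28 for Ovol1, -0.039 to 0.27 for Ppl, -0.14 to 0.27 for Sbsn, -0.41 to 0.20 for Sprr1a and -0.13 to 0.073 for Tgm1. Further members whose sign changed were Grhl3 (-0.06 to 0.56), Asprv1 (-0.31 to 0.31), Cdsn (-0.36 to 0.36) and Lce3c (-0.29 to 0.09), besides 9 dim ones, of which Smpd3 and Sprr3 reached a difference of 0 without a change of sign. Of the 12 members with more than 1 probe set, all probe sets had the same sign for 8.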
